A study of Mus musculus with 12 samples.

Results

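The interleukin-1 (IL-1) family and its receptors were followed in the colon and in whole blood in a dextran sulfate sodium (DSS) mouse model of ulcerative colitis (UC). The members were the 10 genes Il1a, Il1b, Il18, Il33, Il1rn, Il1r1, Il1r2, Il1rl1, Il18r1 and Il18rap, found by symbol among the 53801 genes counted. All 10 were present in the normalized tables of both tissues. The 12 libraries of total RNA came from 6 wild-type male C57BL/6 mice, obtained at an age of 8 weeks and picked by their disease activity scores, each of which gave 1 colon and 1 blood library. Mice 1, 2 and 4 carry the label UC. By the methods, UC mice were given 1.5% DSS, an epithelium-damaging polysaccharide, in drinking water for 7 days. Mice 7, 8 and 9 carry the label control. By the methods, control mice drank the same water without DSS, and every animal was killed on day 8. The comparison of the labelled groups asks how the family changes in DSS colitis, and the comparison of tissues asks which of its parts are seen in blood and which in colon.

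IL-1 alpha and IL-1 beta both signal through the receptor IL-1R1 (Il1r1) with an accessory chain (Il1rap). The receptor antagonist (Il1rn) occupies IL-1R1 without signalling, and IL-1R2 (Il1r2) is a decoy that binds IL-1 and lacks a signalling domain. IL-18 acts through Il18r1 and its accessory chain Il18rap, and is matured, like IL-1 beta, by caspase-1 within inflammasomes. IL-33 is a nuclear alarmin of stromal and epithelial cells that acts through ST2, the product of Il1rl1. In the gut the family is known for alarm signals from damaged epithelium, for recruiting neutrophils and for supporting repair.

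Promoters of the 4 ligand genes are shown. Il1a and Il1b lie near each other on one strand of chromosome 2, Il18 was abundant in every colon library, and Il33 was nearly absent from blood. The sequences are from RefSeq on build GRCm38.p6 and cover the 250 bases before the start of transcription, written 5′ to 3′ on the gene's strand. Capitals mark matches to TATAAA on the gene's strand (TATA box) and, on either strand, to TTNNGNAA (C/EBP type) and TGANTCA (AP-1 type). No capital stretches overlap in the sequences shown.
Il1a, chr2:129309973-129310222, minus strand: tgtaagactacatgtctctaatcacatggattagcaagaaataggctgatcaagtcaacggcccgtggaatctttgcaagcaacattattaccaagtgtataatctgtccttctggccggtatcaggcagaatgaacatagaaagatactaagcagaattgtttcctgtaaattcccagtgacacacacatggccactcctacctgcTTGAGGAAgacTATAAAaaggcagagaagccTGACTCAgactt
Il1b, chr2:129371140-129371389, minus strand: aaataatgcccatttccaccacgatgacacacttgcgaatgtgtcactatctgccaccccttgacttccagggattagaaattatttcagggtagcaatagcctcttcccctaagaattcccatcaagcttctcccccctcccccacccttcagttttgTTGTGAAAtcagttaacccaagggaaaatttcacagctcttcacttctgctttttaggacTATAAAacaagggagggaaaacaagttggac
Il18, chr9:50554450-50554699, plus strand: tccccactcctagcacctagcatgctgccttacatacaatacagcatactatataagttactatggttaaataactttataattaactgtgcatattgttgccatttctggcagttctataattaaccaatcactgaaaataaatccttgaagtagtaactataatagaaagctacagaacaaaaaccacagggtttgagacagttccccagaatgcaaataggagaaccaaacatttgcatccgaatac
Il33, downstream start, chr19:29945540-29945789, plus strand: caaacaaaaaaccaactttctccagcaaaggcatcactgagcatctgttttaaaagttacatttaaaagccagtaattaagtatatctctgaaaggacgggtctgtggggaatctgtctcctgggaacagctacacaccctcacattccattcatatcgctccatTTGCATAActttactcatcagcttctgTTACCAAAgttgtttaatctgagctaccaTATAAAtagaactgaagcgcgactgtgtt

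A TATAAA match began 32 bases before the start of Il1a, 31 bases before that of Il1b and 29 bases before this start of Il33, whereas the Il18 window held none of the 3 motifs. Before the upstream start of Il33, which is not shown, the TATAAA match began at 203 bases. TATAAA occurred in 7.59% of the 32851 RefSeq promoters searched over the same window, TTNNGNAA in 36.8% and TGANTCA in 6.75%. Among 17 starts of the 10 members, TATAAA occurred before 4, TTNNGNAA before 11 and TGANTCA before 2. Some windows of the same gene overlap, so a match can count more than once, as a TTNNGNAA match of Il1rn did. These matches describe letters only, and binding was not measured.

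The counted totals ran from 69181049 to 103662306 per colon library and from 80867247 to 142536804 per blood library. Within each labelled group of a tissue no libraries were duplicates, and libraries of different groups were not compared for this. For all 12 samples, both tissue fields of the labels are filled, and they name opposite tissues. The tissue used here is the one in which red cell genes (3 of 3 tested) were SDE higher in blood and simple epithelium genes (6 of 6) SDE higher in colon. Of all genes tested, 20.8% were SDE higher in blood and 37.7% higher in colon. SDE (significantly differentially expressed) denotes a Benjamini-Hochberg adjusted p not above 0.05 (edgeR quasi-likelihood test) together with an absolute log2 fold change (log2FC) over 1. Levels within a tissue are the authors' normalized counts, and levels across tissues are CPM, counts relative to library size scaled by TMM. In both tissues the 7 neutrophil markers were all highest in mice 1, 7 and 9, of which only mouse 1 is labelled UC. Their median log2FC, labelled UC against labelled control, was -1.88 in colon (7 of 7 below 0) and 0.43 in blood (2 of 7 below 0), and none was SDE. Both deposited normalized tables also place the columns of mice 1, 7 and 9 before those of mice 2, 4 and 8. The paper counts S100a8 and S100a9 among the genes raised in both tissues of DSS mice, and names the member Il1b with them. As labelled, the log2FC of S100a8, S100a9 and Il1b was -1.49, -1.88 and -1.78 in colon. In blood it was -0.37, -0.034 and -0.47. The paper also lists Saa3 and Il6 among the genes most raised in colon of DSS mice. In colon, Saa3 had 4701, 0 and 0 normalized counts in labelled UC mice 1, 2 and 4. It had 3256, 0 and 26328 in labelled control mice 7, 8 and 9. Il6 had 314, 0 and 0 in labelled UC mice and 173, 0 and 1477 in labelled control mice. As labelled, the colon log2FC was -2.65 for Saa3 and -2.39 for Il6. The labelled groups thus do not give the direction that the paper reports for these genes. Whether the deposited disease labels match the treatment each mouse received could not be settled from the deposited files alone. The groups were kept as labelled, are called labelled UC and labelled control, and every difference between them holds only as far as the labels do.

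The ligands Il1a and Il1b ranged more widely between colon libraries than nearly any other gene. Il1b, the inducible IL-1 of myeloid cells, had 4138, 125 and 20.6 normalized counts in colon of labelled UC mice 1, 2 and 4, and 1361, 31.5 and 13429.7 in labelled control mice 7, 8 and 9. Il1a, an IL-1 that also acts from inside the cell as an alarmin, had 704, 12.2 and 12.4 in labelled UC mice and 126, 0 and 2124 in labelled control mice. Both genes were high in mice 9, 1 and 7, in that order, and low in mice 2, 4 and 8, so the labelled groups overlapped. The count of 0 for Il1a in mouse 8 allows up to 3.78 normalized counts, for counting error only. On the log2(normalized count + 1) scale Il1a spanned 11.05 and Il1b 9.28 over the 6 colon libraries, where the median gene spanned 1.15. The range of Il1a exceeded that of 99.9% of the 22182 genes and the range of Il1b that of 99.7%. The span of Il1a depends on the 0 in mouse 8 and on the added 1. Receptor genes of the family also ranged widely in colon, such as Il1r2 (8.45, above 99.5% of genes) and Il1rl1 (6.26, above 98.2%).

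**Figure D1:**
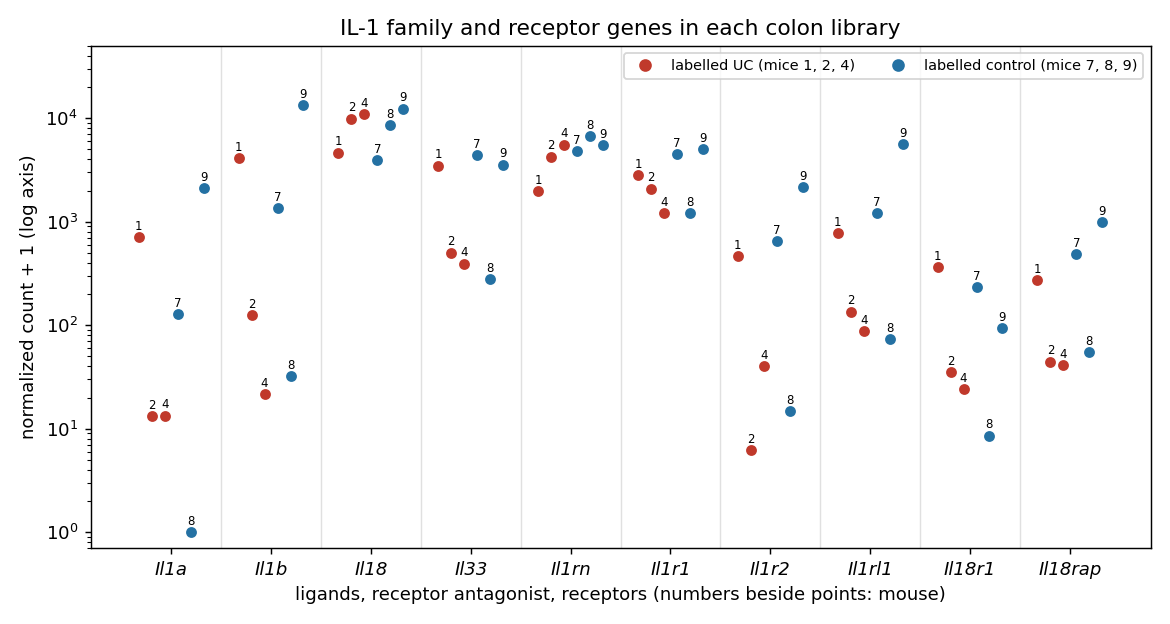
Normalized count + 1 (log axis) of the 10 genes in the 6 colon libraries, with each point numbered by mouse and coloured by disease label. In Il1a, Il1b, Il33 and all 5 receptor genes, mice 1, 7 and 9 lie above mice 2, 4 and 8, while Il18 and Il1rn do not show this order.

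Il33 split the colon libraries into high and low levels with little spread within each. It had 3479, 502 and 393 normalized counts in labelled UC mice 1, 2 and 4 and 4389, 277 and 3572 in labelled control mice 7, 8 and 9. The high values again belonged to mice 1, 7 and 9. Il18, made constitutively by colonic epithelium, had 4663, 9937 and 10999 normalized counts in labelled UC mice and 3959, 8585 and 12416.5 in labelled control mice. It was lowest in mice 7 and 1 and highest in mouse 9, so it did not follow the other ligands. The highest value was 3.14 times the lowest for Il18, 15.8 times for Il33 and 651 times for Il1b.

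Il1rn, the antagonist, had 1989, 4255 and 5554 normalized counts in colon of labelled UC mice 1, 2 and 4 and 4852, 6780.1 and 5547 in labelled control mice 7, 8 and 9. It was lowest in mouse 1, where Il1b was second highest. Per kilobase (kb) of exon, which makes levels comparable between genes, the ratio of Il1b to Il1rn in colon was 6.04, 0.0849 and 0.0108 in labelled UC mice and 0.814, 0.0135 and 7.03 in labelled control mice. Il1b thus exceeded its antagonist in colon of mice 1 and 9 and lay far below it in mice 2, 4 and 8. In blood the same ratio was 108, 57.4 and 72.0 in labelled UC mice and 116, 69.2 and 79.6 in labelled control mice. Every blood library held far more Il1b than Il1rn per kb, and the blood ratios differed from each other by far less than the colon ratios.

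All 5 receptor genes were high in the same colon libraries as Il1b. The decoy Il1r2 had 468, 5.23 and 39.6 normalized counts in labelled UC mice 1, 2 and 4 and 644, 13.9 and 2177 in labelled control mice 7, 8 and 9. The signalling receptor Il1r1 varied less, with 2827, 2094 and 1217 in labelled UC mice and 4531, 1221 and 5063 in labelled control mice. Both were highest in mice 9, 7 and 1. Per kb, the ratio of decoy to signalling receptor in colon was 0.552, 0.00832 and 0.109 in labelled UC mice and 0.474, 0.0379 and 1.43 in labelled control mice. Mouse 9 was the only colon library in which the decoy exceeded the signalling receptor. In blood this ratio was 370, 9.87 and 32.0 in labelled UC mice and 59.7, 18.5 and 108 in labelled control mice, so the decoy exceeded the signalling receptor in all 6.

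**Figure D2:**
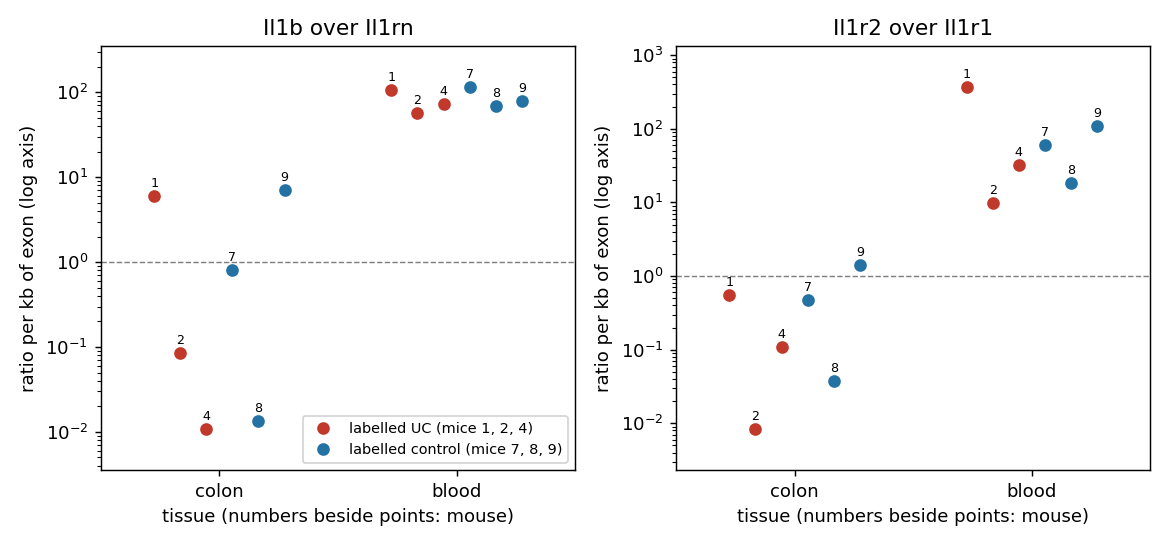
Ratio per kb of exon (log axes) of Il1b to its antagonist Il1rn (left) and of the decoy Il1r2 to the signalling receptor Il1r1 (right) in each library, numbered by mouse and coloured by disease label; the dashed line is a ratio of 1. The Il1b to Il1rn ratio runs from 0.0108 to 7.03 in colon and from 57.4 to 116 in blood, and the decoy ratio from 0.00832 to 1.43 in colon and from 9.87 to 370 in blood.

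Il1rl1, which encodes the IL-33 receptor ST2, had 782, 134 and 86.6 normalized counts in colon of labelled UC mice 1, 2 and 4 and 1203, 71.8 and 5595 in labelled control mice 7, 8 and 9. Its ligand was as high in mouse 1 as in mouse 9, whereas the receptor in mouse 9 was far above every other library. Per kb, Il33 exceeded Il1rl1 by a ratio between 8.72 and 10.8 in the colon of mice 1, 2, 4, 7 and 8, and by 1.53 in mouse 9. The IL-18 receptor chains were low in colon. Il18r1 had 361, 34.0 and 23.1 normalized counts in labelled UC mice and 234, 7.56 and 92.7 in labelled control mice. Il18rap had 273, 43.5 and 40.4 in labelled UC mice and 489, 54.2 and 983 in labelled control mice. The per kb ratio of Il18rap to Il18r1 in colon was 0.539, 0.915 and 1.25 in labelled UC mice and 1.49, 5.11 and 7.56 in labelled control mice. Of 10 such ratios examined (5 in each tissue) this was the only one in which the labelled groups did not overlap, and with 3 against 3 libraries an exact two-sided permutation test cannot give a p below 0.1. The groups were nearest in mice 4 and 7, with 28 and 185 counts of Il18r1, and the lowest count was 6, in mouse 8.

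In total, 8 of the 10 members had their 3 highest colon levels in mice 1, 7 and 9, an order seen in 18.2% of the 22182 genes tested. This set of mice was chosen after the values were seen, and it gives no test. Markers of several cell types ran the same way in colon. The summed level of 7 neutrophil markers was 7446 to 33909.6 in labelled UC and 17736 to 64954 in labelled control libraries, and most of it in mice 2, 4 and 8 was Ly6g, with 7350.0, 16355 and 17455 normalized counts there. Without Ly6g, a choice made after seeing the data, the other 6 summed to 12416, 95.8 and 139 in labelled UC mice 1, 2 and 4 and to 5295, 281 and 39475 in labelled control mice 7, 8 and 9. All 7 neutrophil markers, all 6 monocyte and macrophage markers, 5 of 7 T and NK cell markers, 3 of 7 mast cell markers and 3 of 6 fibroblast and endothelial markers were highest in mice 1, 7 and 9, and none of these markers was at 0 in every library. The same held for only 1 of 6 simple epithelium, 0 of 6 squamous epithelium and 0 of 3 red cell markers. S100a8, a neutrophil granule gene, had 5370.4, 33.1 and 22.3 normalized counts in colon of labelled UC mice and 1888, 75.6 and 13337 in labelled control mice. The part of cell numbers in the members' levels was not tested, and in bulk tissue more cells of a type and more RNA per cell cannot be told apart.

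In blood the family was led by Il1b and its pattern was narrower. Il1b had 13675, 5446 and 6681 normalized counts in labelled UC mice 1, 2 and 4 and 15643, 4822 and 15251 in labelled control mice 7, 8 and 9. It was again highest in mice 1, 7 and 9, yet its highest value was only 3.24 times its lowest. Il1r2 had 8640.2, 441 and 682 in labelled UC mice and 1055, 746 and 3091 in labelled control mice. Il18rap, mainly known from T and NK cells, had 8653, 2425 and 2068 in labelled UC mice and 3729, 2336 and 6708 in labelled control mice. Both of these were highest in mouse 1 and second highest in mouse 9. Il1rn had 369, 275 and 269 in labelled UC mice and 393, 202 and 556 in labelled control mice. Il1b, Il1rn, Il1r2 and Il18rap, 4 of the 9 members tested in blood, had their 3 highest values in mice 1, 7 and 9, against 11.8% of the 16727 genes tested.

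**Figure D3:**
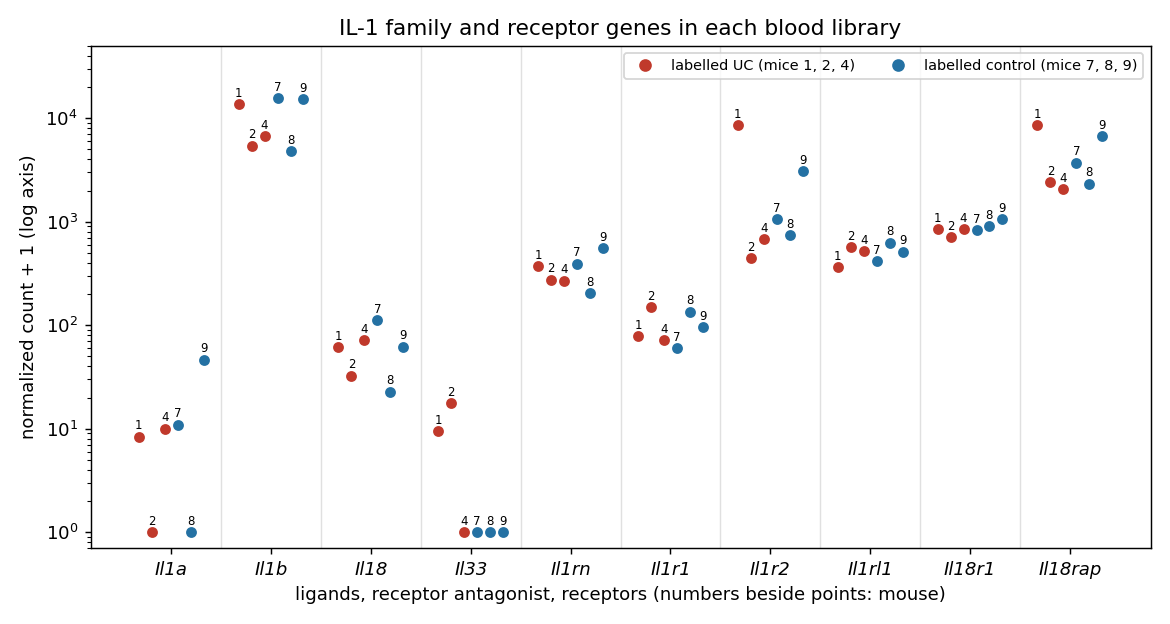
Normalized count + 1 (log axis) of the 10 genes in the 6 blood libraries, numbered by mouse and coloured by disease label; points at 1 are counts of 0. Il1b lies between 4822 and 15643 in all libraries, Il1r2 is widest among the abundant members, and Il33 is at 0 in 4 libraries.

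Il18r1 and Il1rl1 were steady in blood. Il18r1 had 845, 707 and 852 normalized counts in labelled UC mice and 832, 903 and 1051 in labelled control mice, a log2 range of 0.57 that was smaller than the range of most genes. Il1rl1 had 362, 567 and 517 in labelled UC mice and 415, 629 and 513 in labelled control mice. Its highest blood values were in mice 8, 2 and 4, just above mouse 9, whereas its highest colon values were in mice 9, 7 and 1. Il1r1 ranged from 59.0 to 149, a log2 range of 1.32 where the median gene had 1.17, and Il18 from 21.8 to 112. Il1a was listed at 0 in mice 2 and 8 and reached 45.5 in mouse 9, and Il33 had 8 counts in mouse 1, 11 in mouse 2 and 0 elsewhere, which allows up to 3.45 normalized counts in a library at 0. The 7 neutrophil markers in blood summed to 47190.0 to 450915 in labelled UC and 39148 to 352142 in labelled control libraries, and all 7 were highest in mice 1, 7 and 9. None of the 7 T and NK cell markers had that order, nor did any epithelium or red cell marker. It was held by 3 of 6 monocyte and macrophage, 1 of 4 mast cell and 1 of 5 fibroblast and endothelial markers. The part of these cell types in the levels of Il1r2 and Il18rap was not tested.

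Per kb of exon the order of the members differed between tissues. In colon the medians over 6 libraries ran from Il18 (8983 normalized counts per kb) through Il1rn (939), Il33 (690), Il1b (389), Il1r1 (387), Il1r2 (133), Il1rl1 (66.5), Il1a (35.2) and Il18rap (24.2) to Il18r1 (13.1). Only Il18 was apart from its neighbour, above Il1rn in 6 of 6 libraries without overlap of their ranges, while each later neighbour pair overlapped. In blood the order was Il1b (5337), Il1r2 (472), Il18rap (456), Il18r1 (176), Il1rl1 (74.7), Il18 (58.8), Il1rn (58.2), Il1r1 (13.6), Il1a (4.15) and Il33 (0). Here Il18rap was apart from Il18r1, Il18r1 from Il1rl1 and Il1rn from Il1r1, and the other neighbours overlapped. Il1b nevertheless exceeded Il1r2 in all 6 blood libraries.

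Between labelled UC and labelled control mice no member was SDE in either tissue, a result that takes the disease labels as given although levels in colon did not follow them. The levels of the labelled groups overlapped in all 10 members in both tissues, where 5.66% of genes in colon and 6.5% in blood did not overlap. In colon 0 of 10 members were SDE, against 0.0045% of the 22238 genes tested (1 gene), and in blood 0 of 9, against 0% of 16759. Il33 was too low in blood to be tested. No member reached an unadjusted p under 0.05 in either tissue, against 1.41% of genes in colon and 1.44% in blood, and DESeq2 called none, though it gave no adjusted p for Il1r2 in blood. In colon the members' median log2FC was -1.27, where all genes had -0.0069, and 8 of 10 were below 0. The values ran from -2.77 ± 1.50 (SE) for Il1rl1 to 0.31 ± 1.37 for Il18r1, with Il1b at -1.78 ± 2.20, all with an adjusted p of 1.00 in edgeR. In blood the median was -0.21 against 0.036 for all genes, from -1.68 ± 1.45 for Il1a to 0.99 ± 1.07 for Il1r2. Single mice decided some of these directions: without mouse 9 the colon log2FC was 1.90 for Il1a and 1.00 for Il1b, and without mouse 1 the blood log2FC of Il1r2 was -1.52. With standard errors of this size, differences of several fold in Il1a, Il1b or Il1r2 could not have been told from 0 in colon. For these genes each labelled group held both high and low colon libraries. Mouse 1 was high and mice 2 and 4 low, and mice 7 and 9 were high and mouse 8 low. The lack of calls therefore does not show that the family is unchanged in DSS colitis. The difference of the UC effect between tissues was called for 0 of 10 members, against 0.0043% of 23258 genes. No member had an unadjusted p under 0.05 there, against 3.41% of genes. It was furthest from 0 for Il33 (log2 difference -7.98 ± 3.69, adjusted p = 1.00 in edgeR), which depends on the few counts of Il33 in blood.

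Between colon and blood the family divided evenly. Il1rn, Il1r1, Il18 and Il33 were SDE higher in colon, and Il1b, Il1r2, Il18r1 and Il18rap were SDE higher in blood, while Il1a and Il1rl1 did not pass the test. Thus 8 of 10 members were SDE, against 58.5% of the 23258 genes tested. Of the 10, 4 were higher in colon, against 37.7% of genes, and 4 higher in blood, against 20.8%. The median log2FC, colon against blood, was 0.59 over the members and 0.46 over all genes. The mice were the same in both tissues, but colon RNA was depleted of ribosomal RNA and blood RNA of globin and ribosomal RNA with different kits, so tissue and kit cannot be told apart.

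**Figure D4:**
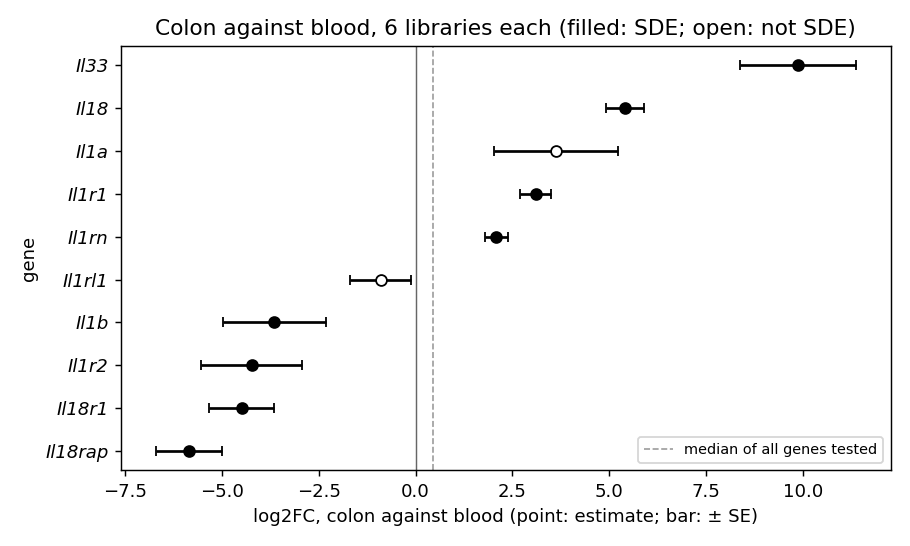
log2FC of colon against blood (edgeR, 6 libraries each) for the 10 genes; points are estimates, bars ± SE, filled points are SDE and open points are not, and the dashed line is the median of all genes, 0.46. Il33, Il18, Il1r1 and Il1rn lie to the right as SDE genes, and Il1b, Il1r2, Il18r1 and Il18rap to the left.

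Il18 had 25.9, 54.2 and 60.0 CPM in colon of mice 1, 2 and 4 and 22.6, 48.1 and 68.8 in mice 7, 8 and 9, against 0.389 to 2.09 in blood. Its log2FC was 5.41 ± 0.49 (SE, 42.5-fold, adjusted p = 2.75e-06, edgeR), and no colon library came near a blood library. Il33 had 1.55 to 25.0 CPM in colon and 0 to 0.292 in blood. Its log2FC of 9.87 ± 1.49 (adjusted p = 0.000284, edgeR) depends on the prior count that the fit adds, since 4 blood libraries had no count and the other two 19 together, and it was 9.08 without mouse 1 and 10.54 without mouse 2. Il1r1 was 8.59-fold higher in colon (log2FC 3.10 ± 0.40, adjusted p = 4.24e-05, edgeR), with 6.64 to 28.1 CPM in colon and 1.10 to 2.63 in blood. Il1rn was 4.23-fold higher in colon (log2FC 2.08 ± 0.30, adjusted p = 8.91e-05, edgeR), with 11.0 to 38.0 CPM in colon and 3.61 to 10.1 in blood. In these 4 genes every colon library was above every blood library, as in 34.3% of genes tested.

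On the blood side the difference was clearest for the IL-18 receptor. Il18rap had 158, 42.8 and 37.6 CPM in blood of mice 1, 2 and 4 and 69.7, 41.7 and 122 in mice 7, 8 and 9, against 0.220 to 5.45 in colon. It was 57.5-fold higher in blood (log2FC -5.85 ± 0.85, adjusted p = 0.000103, edgeR), and Il18r1 22.5-fold (log2FC -4.49 ± 0.83, adjusted p = 0.000572, edgeR), with 12.5 to 19.1 CPM in blood and 0.0423 to 2.001 in colon. For these IL-18 receptor genes and Il1b every blood library was above every colon library in TMM-scaled CPM, as in 19.2% of genes tested. The log2FC of Il18r1 was -5.61 without mouse 1, -5.09 without mouse 7 and -5.39 with the replicate block. Ligand and receptor of the IL-18 pair thus lay on opposite sides of the tissue comparison. All 7 T and NK cell markers (median log2FC -4.81) were also SDE higher in blood, against 20.8% of genes tested. So were 6 of 7 neutrophil markers (median of the 7, -6.29). Il18rap had its 3 highest blood values in mice 1, 7 and 9, as did all 7 neutrophil markers and 0 of 7 T and NK cell markers. The part of these cell types in the receptor difference was not tested.

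Il1b had 250.1, 96.0 and 121 CPM in blood of mice 1, 2 and 4 and 293, 86.0 and 277 in mice 7, 8 and 9. In colon it had 22.9, 0.679 and 0.112 CPM in mice 1, 2 and 4 and 7.76, 0.176 and 74.4 in mice 7, 8 and 9. Blood was above colon in each mouse, and the highest colon library lay just below the lowest blood library. This separation of the tissues rests on the TMM factors, which were 0.347 to 0.721 in blood and 1.91 to 2.32 in colon. Before that scaling, Il1b had 14925 of 86450786 counts in colon of mouse 9. That was a larger share than the 4197 of 140461769 in blood of mouse 8. The log2FC was -3.65 ± 1.33 (12.5-fold, adjusted p = 0.0294, edgeR), and the call was lost without mouse 2 (adjusted p = 0.0727), mouse 4 (0.0570) or mouse 7 (0.0996). The difference was larger with the replicate block, which pairs the tissues of a mouse (log2FC -6.06, adjusted p = 0.00599), without mouse 1 (-5.54, adjusted p = 0.00582) and without mouse 9 (-4.93, adjusted p = 0.0221). Il1r2 was 18.8-fold higher in blood (log2FC -4.23 ± 1.302, adjusted p = 0.0128, edgeR) and higher in blood in each of the 6 mice. Its tissues overlapped, as colon of mouse 9 (12.1 CPM) exceeded blood of mouse 2 (7.78 CPM). With the replicate block the log2FC of Il1r2 was -4.97. Of the 7 neutrophil markers 6 were SDE higher in blood, against 20.8% of genes tested. Ly6g was SDE higher in colon (log2FC 2.90, adjusted p = 0.0153, edgeR). The part of these markers was not tested.

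Il1a and Il1rl1 had overlapping tissues. Il1a, with 0 to 11.8 CPM in colon and 0 to 0.826 in blood, had a log2FC of 3.63 ± 1.60 (adjusted p = 0.0621, edgeR), and passed without mouse 8 (adjusted p = 0.0419) and by DESeq2 (adjusted p = 0.0473). Without mouse 1 the log2FC was 1.58 (adjusted p = 0.402), without mouse 9 it was 2.78 (0.173), and with the replicate block 2.56 (0.0713). Il1rl1 had 6.63 to 11.2 CPM in blood, inside its colon range of 0.402 to 31.0, with a log2FC of -0.90 ± 0.78 (adjusted p = 0.323, edgeR). It was higher in colon in mouse 9 and higher in blood in the other five mice, and the log2FC was -1.80 without mouse 9, -1.78 without mouse 1 and -1.85 with the replicate block, none of which passed.

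Of the receptor genes, 5 members and Il1rl2, the IL-36 receptor, form a cluster of 478 kb on chromosome 1 (GRCm38, Il1r2 at 40074079 to Il18rap at 40551705), all on the plus strand. Neighbours in it had opposite tissue levels. Il1r2 at its start and Il18r1 and Il18rap at its end were higher in blood in 6 of 6 mice, and Il1r1, which begins 99848 bases after the end of Il1r2, was higher in colon in 6 of 6. Il1rl1 and Il18r1 are separated by 136 bases in the annotation. In blood these neighbours had separate levels, with 0.961 to 1.63 CPM per kb for Il1rl1 and 2.59 to 3.96 for Il18r1.

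**Figure D5:**
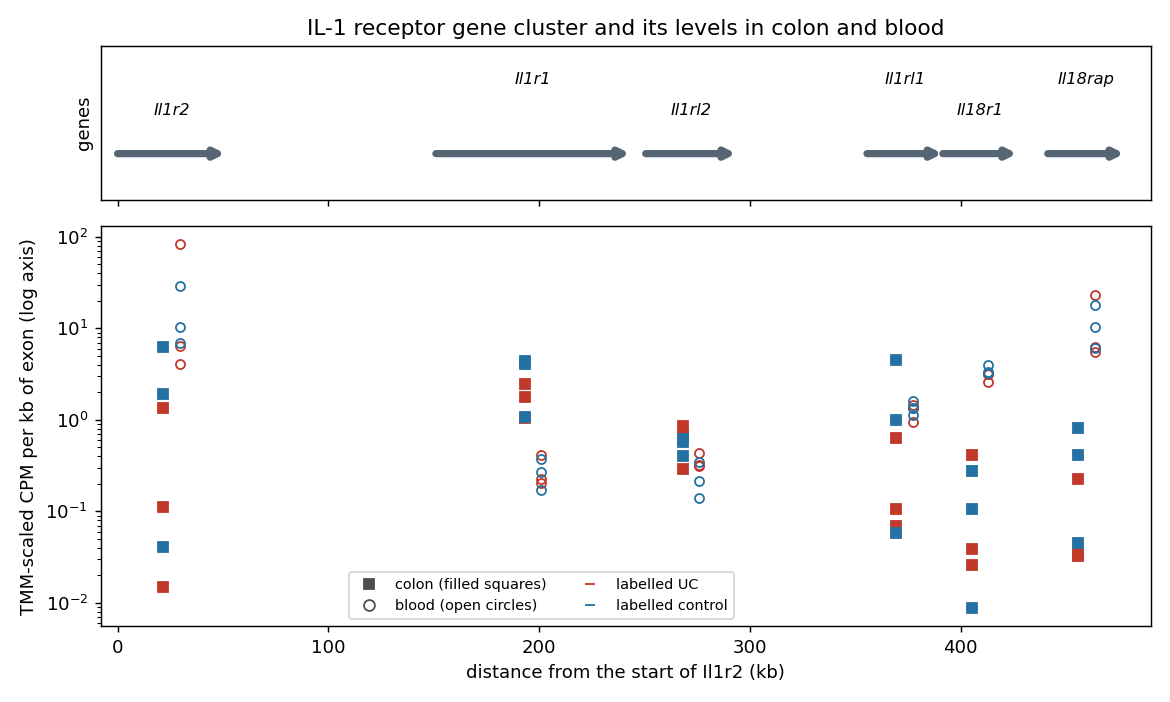
Upper panel, extents and direction of the 6 receptor genes by distance from the start of Il1r2 (kb); lower panel, TMM-scaled CPM per kb of exon (log axis) in each colon library (filled squares) and blood library (open circles), coloured by disease label. Il1r2, Il18r1 and Il18rap are higher in blood in all 6 mice and Il1r1 is higher in colon in all 6, while Il1rl1 overlaps.

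Exons of a few members share bases with genes on the other strand, and reads of such partners cannot be told apart without strand. Il1b shares 25 exon bases with Il1bos, which had at most 16 counts in colon and 88 in blood, and Il1a shares 222 with Gm14023, which had at most 70.0 and 107. In blood, where Il1a had at most 55 counts, its level is therefore uncertain. Within an intron of Il1r2 lies Gm37347 on the same strand, with up to 4876 counts in blood, and no exon base is shared.

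Other genes of the pathway were followed in fixed lists. Of all genes tested between tissues, 37.7% were SDE higher in colon and 20.8% higher in blood. The accessory chain Il1rap, needed by IL-1R1, ST2 and the IL-36 receptor, had 5534, 610 and 665 normalized counts in blood of labelled UC mice and 2492, 711 and 4456 in labelled control mice. In colon, on that tissue's own scale, it ran from 1338 to 2052. Of 5 co-receptor and inhibitor genes, Il1rap, Irak3 and Tollip were SDE higher in blood (log2FC -2.24, -2.04 and -1.46), Il18bp, the secreted IL-18 inhibitor, SDE higher in colon (1.16), and Sigirr was not (-0.055). Of the 6 IL-36 and IL-38 genes only 2 could be tested: Il36g, an IL-36 ligand, was SDE higher in blood (log2FC -6.14, adjusted p = 0.00207, edgeR) and Il1rl2 was not SDE (0.99). In the machinery that matures and releases IL-1 beta and IL-18, 9 of 10 genes were tested. The inflammasome sensor Nlrc4, adaptor Pycard, protease Casp1 and pore-forming Gsdmd were SDE higher in colon (log2FC 2.37, 2.15, 2.18 and 2.03), and the sensor Nlrp3 was SDE higher in blood (-3.35). The 4 of 9 higher in colon lay near the share of all genes, 37.7%. Receptor signalling genes differed little, with 1 of 10 SDE higher in colon (Rela, 1.17) and 3 higher in blood (Ikbkb, Myd88 and Tab2, from -1.11 to -1.01). Of 11 response genes tested, Areg, Csf3, Cxcl1, Cxcl5 and Ptgs2 were SDE higher in colon and Ifng, which IL-18 is known to induce, SDE higher in blood (-1.998). No gene of these 5 lists was SDE between the labelled groups in either tissue. The 3 highest values were in mice 1, 7 and 9 for 7 of 13 response genes present in colon, against 18.2% of genes, and for 3 of 9 in blood, against 11.8%. Among those in colon was Cxcl5, a neutrophil chemokine, with 9107, 117 and 195 normalized counts in labelled UC mice and 4869, 277 and 10986 in labelled control mice.

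The genes most like a member were those with the smallest root mean square difference of centred log2(normalized count + 1) over the 6 libraries of a tissue. For Il33 in colon they were Alpl (0.190), St3gal1 (0.199) and Fst (0.209), and the nearest other member was Il18rap (0.647). For Il18 in colon they were Haus1 (0.0716), Wdr76 (0.148) and Gm10355 (0.152), and the nearest other member, Il1rn, ranked only 4611th of 22122 genes. For Il1b in colon they were Il36g (0.259), Bhmt2 (0.536) and Gm43181 (0.549), and the nearest member was Il1a (1.29), but with a pseudocount of 10 none of the 3 remained and Mmp3, Mmp10 and Il6 took their place. In blood the nearest to Il1b were Eps8 (0.168), Gm38056 (0.177) and Gm37909 (0.181), with Il1rn the nearest member (0.357). Nearest to Il1r2 in blood were Zfhx3 (0.255), Olfml2b (0.301) and Adam8 (0.307), with Il18rap the nearest member (0.755). With 6 libraries that share their depth and cell make-up, these are descriptions.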

How the data were processed

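Total RNA of 12 libraries (3 in each of 4 groups) was quantified by the authors on GRCm38; per the labels they used STAR and StringTie 1.3.4c, and per the methods default options, which set no strand. The deposited count table holds whole-number gene counts derived from StringTie coverage. The deposited normalized tables are a signal in which the authors divided counts by 1 factor per library (0.664 to 1.31), separately per tissue, so they were compared only within a tissue. In blood, 7SL genes, absent from the normalized table, took 35.9% to 65.4% of counts. All per-sample columns were used.

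Groups came from the disease label and tissue characteristic, mouse numbers from titles. Counts were tested with edgeR 4.0.16 (R 4.3.3): TMM, filterByExpr, glmQLFit, glmQLFTest, Benjamini-Hochberg adjustment over all genes; the labelled groups within each tissue, the interaction and the tissues over 12 libraries. SE is log2FC over the square root of F. Alternatives were DESeq2 1.42.0, RLE, no filter, each mouse left out and a replicate block. Colon and blood libraries of a number come from 1 mouse, per the methods; deviations from group means correlated at 0.00476 to 0.227 (15802 genes). The fits were tested on simulated data.

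Exon lengths, positions and gene types came from GENCODE vM21, which held 53620 of the gene identifiers. Members, the 13 lists (94 of 95 genes found) and tests were chosen with earlier results of these data known. List genes were named only beside a member's result or a list's count; likeness covered genes with a mean of at least 10 normalized counts, naming 3 genes for each of Il1b, Il18 and Il33 in colon and Il1b and Il1r2 in blood. Intervals for counts of 0 use 3 counts and cover counting error only.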

Additional observations from a re-analysis of the deposited data

How the results depend on the processing

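The counts of members called between labelled groups, and for the interaction, were 0 under every alternative run. Between colon and blood 7 to 9 members were called with 1 mouse left out, 7 by DESeq2 and 8 under RLE, no filter and the replicate block, and the block changed no call of a member. DESeq2 gave no adjusted p for Il1b or Il18r1 between tissues and in the interaction, or for Il1r2 between labelled groups in blood. The median gene moved from 0.46 to 0.81 without a filter and to 0.27 by DESeq2 (colon against blood, log2), where more genes were tested. All 10 members kept their direction between tissues with any mouse left out. In the label comparisons directions changed with the mice included: leaving out 1 mouse at a time, 4 of 10 members changed direction in colon, 7 of 9 in blood and 5 of 10 in the interaction. In colon the log2 values ran for Il1a from -5.91 to 1.90, Il1b from -6.07 to 1.00, Il18 from -0.30 to 0.43 and Il18r1 from -1.97 to 1.47. In blood the log2 values ran for Il1a from -2.25 to 0.13, Il1rn from -0.63 to 0.030, Il1r1 from -0.37 to 0.38, Il1r2 from -1.52 to 1.85, Il18 from -0.67 to 0.39, Il18rap from -0.91 to 0.53 and Il1rl1 from -0.24 to 0.067. For the interaction the log2 values ran for Il1a from -4.07 to 1.80, Il1b from -5.11 to 1.27, Il1rn from -0.63 to 0.26, Il18 from -0.71 to 0.74 and Il18r1 from -1.74 to 1.72. For Il1a the interaction was -0.73 with the replicate block, where it had been 0.052. The causes were not tested. The counts of members highest in mice 1, 7 and 9 were the same from TMM-scaled CPM. Of the 3 genes nearest to a member, a pseudocount of 10 kept 0 for Il1b in colon, 1 for Il1b and 1 for Il1r2 in blood, 2 for Il18 and 3 for Il33.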
